A study of Mus musculus with 4 samples.

Results

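The tumour necrosis factor (TNF) superfamily, its receptors and the TRAF adaptor proteins were described in CD45-negative mouse lung cells after bleomycin. Members were all genes whose symbol names a TNF superfamily ligand, a TNF receptor superfamily member or 1 of the TRAFs, taken from array features annotated to exactly 1 gene. This gave 48 of the 30142 genes tested, comprising 16 ligands, 26 receptors and 6 TRAFs. Tnfsf12, Tnfsf13 and Cd27 share a feature with another annotated gene and stayed outside the comparison, and Traf3 was not analysed here.

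Ligands of this family are membrane-anchored or shed trimers, and each binds 1 or a few receptors on the surface of another cell. Receptors with a cytoplasmic death domain can start apoptosis or necroptosis, receptors without one recruit TRAFs and turn on NF-kB and stress kinases, and decoy receptors bind ligand without signalling. In the lung, these proteins are known for inflammation, epithelial cell death and fibroblast activation after injury.

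The data were 4 Affymetrix arrays of total RNA from lung cells lacking the leukocyte marker CD45, taken 10 days after PBS (2 arrays) or Bleomycin (BLM, 2 arrays) entered the trachea of C57BL/6 mice. PBS is the saline vehicle, and bleomycin is a DNA-damaging drug that injures the lung and is used to model fibrosis. No genotype, sex or age is given for the mice, and nothing tells whether the arrays of a group hold separate animals, so p-values cover only the spread between these arrays, which may be technical. Values are log2 expression as deposited, a difference is the mean of the BLM arrays minus that of the PBS arrays, and SE is its standard error. "Rose" and "fell" mark genes with an adjusted p under 0.05 in limma over all 30142 genes.

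The groups also differed in sex-linked RNA and in leukocyte RNA. Xist, transcribed from the inactive X chromosome of females, stood at 15.86 and 15.61 with PBS and at 5.60 and 5.43 with BLM. Kdm5d, which lies on the Y chromosome of males, went the other way, from 5.74 and 6.07 to 8.06 and 8.02. On the same chromosome, Uty rose by 2.44 (SE 0.23) and Eif2s3y by 2.63 (SE 0.28). The effect of treatment therefore cannot be told apart from sex-linked expression, or from the sex of the mice, for any gene below. Ptprc, the gene of CD45 itself, rose from 6.30 and 6.21 to 7.19 and 7.20 (0.94, SE 0.08). Among the marker lists, 6 of 10 pan-leukocyte and 9 of 12 macrophage genes rose, and 2 macrophage genes fell. Of T cell markers 2 of 8 rose and of NK cell markers none of 8 passed in either direction by limma, where 1 had an unadjusted p under 0.05. Of 9 B and plasma cell markers 2 fell. Neutrophil markers rose in 2 of 8, and of 8 mast cell and basophil markers 4 fell and 1 rose, with Mcpt8 at -3.74. Of structural cell markers, 6 of 7 fibroblast genes and 4 of 5 lymphatic endothelial genes rose, whereas 7 of 8 alveolar type 2 genes and all 7 club and ciliated genes fell. Endothelial genes rose in 3 of 8, mesothelial in 4 of 6 and alveolar type 1 in 2 of 8. Of 8 smooth muscle and pericyte genes, 4 rose and 2 fell. Over all genes tested, 15.2% rose and 10.1% fell. In such bulk samples, fewer cells of a type and less RNA per cell cannot be told apart.

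Of the 21 members that passed the threshold, 13 were receptors, 5 were ligands and 3 were TRAFs. Of the 48 members, 20 rose, 1 fell and 27 did not pass, which is 43.8% past the threshold beside 25.3% of all genes tested. Higher members were 20 of 48 (41.7%), beside 15.2% of all genes, and lower members 1 of 48 (2.08%), beside 10.1%. The 13 receptors that rose were 50% of those measured, against 5 of 16 ligands and 2 of 6 TRAFs. These classes differ in signal: 10 of the 16 ligands, 8 of the 26 receptors and 0 of the 6 TRAFs had a mean at or below the median level. In that range 7.96% of all genes passed, beside 42.7% above it. The part of signal level in the shares by class was not tested. No receptor and no ligand fell by limma, where 1 receptor and 0 ligands were lower at an unadjusted p under 0.05, and the only member that fell was Traf1. Over the members the median difference was 0.29, beside 0.05 over all genes. Without BLM replicate 1 the number that rose was 12, and without BLM replicate 2 it was 13.

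**Figure D1:**
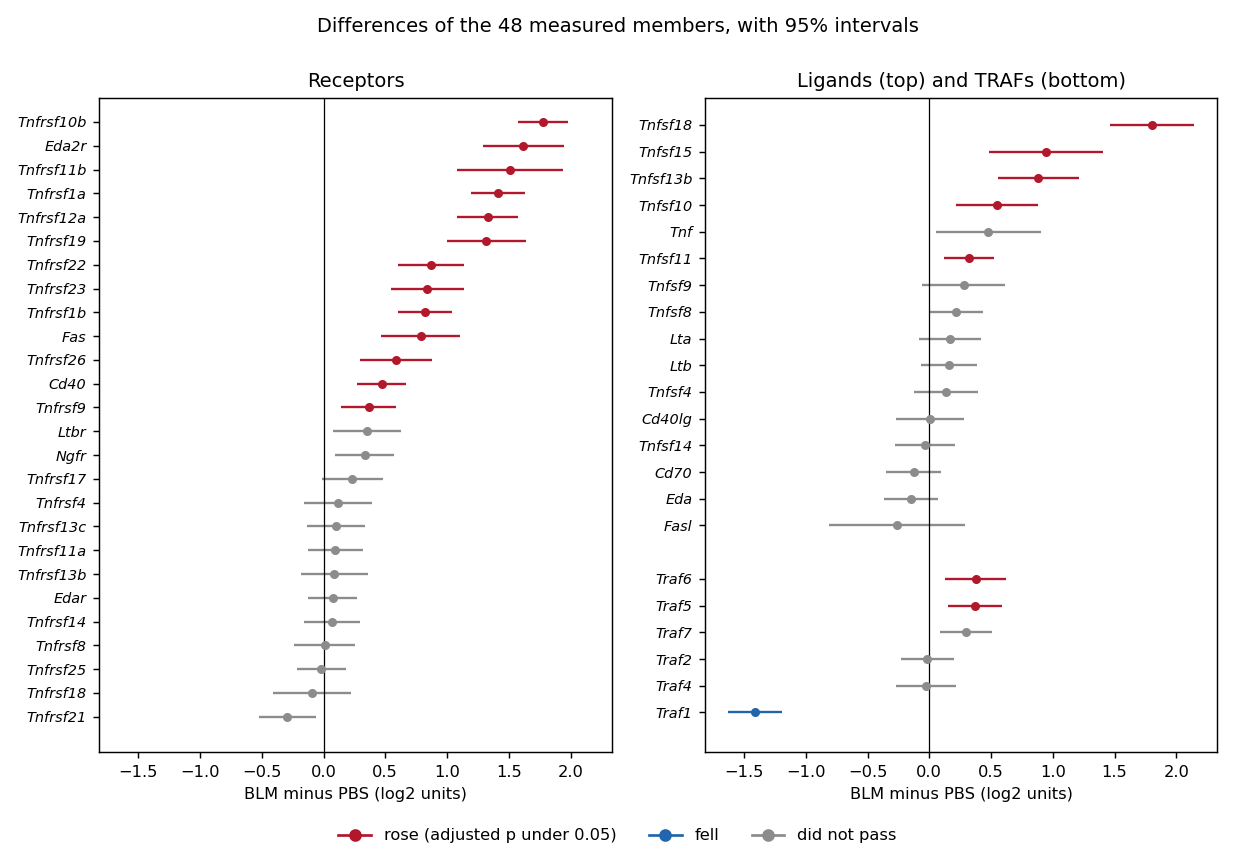
BLM minus PBS differences in log2 units with 95% intervals for the 26 receptors (left) and for the 16 ligands and 6 TRAFs (right), n = 2 arrays per group. Red points rose, the blue point fell and grey points did not pass; 13 receptors, 5 ligands and 2 TRAFs lie on the red side, and Traf1 at -1.41 stands alone on the other.

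Differences of at least 2-fold were found for 7 members that rose and for Traf1, 8 of 48 in all, where 5.14% of all genes tested differed that much and passed, 2.81% higher and 2.33% lower. The 7 were the ligand Tnfsf18 and the receptors Tnfrsf10b, Eda2r, Tnfrsf11b, Tnfrsf1a, Tnfrsf12a and Tnfrsf19. These 8 genes passed under every alternative setting they were tested in, including each array left out and a test against a minimum difference of 0.5. In all 8 the BLM and PBS values lay at least 1.15 log2 units apart, which is no further support, as the 8 were chosen by their difference. The 23 background control probe sets of each array had a median of 3.60 to 3.75 and a highest value of 6.30 to 7.07. Tnfrsf1a, Tnfrsf12a and Traf1 lay above the highest of these on all 4 arrays. Tnfsf18, Tnfrsf10b, Eda2r, Tnfrsf11b and Tnfrsf19 did so on both BLM arrays and on no PBS array, so their folds are as measured and the true PBS level is uncertain. Of all 48 members, 11 lay above it on all arrays, 19 on some and 18 on none, the last including Tnfrsf9 and Tnfsf11, which passed.

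**Figure D2:**
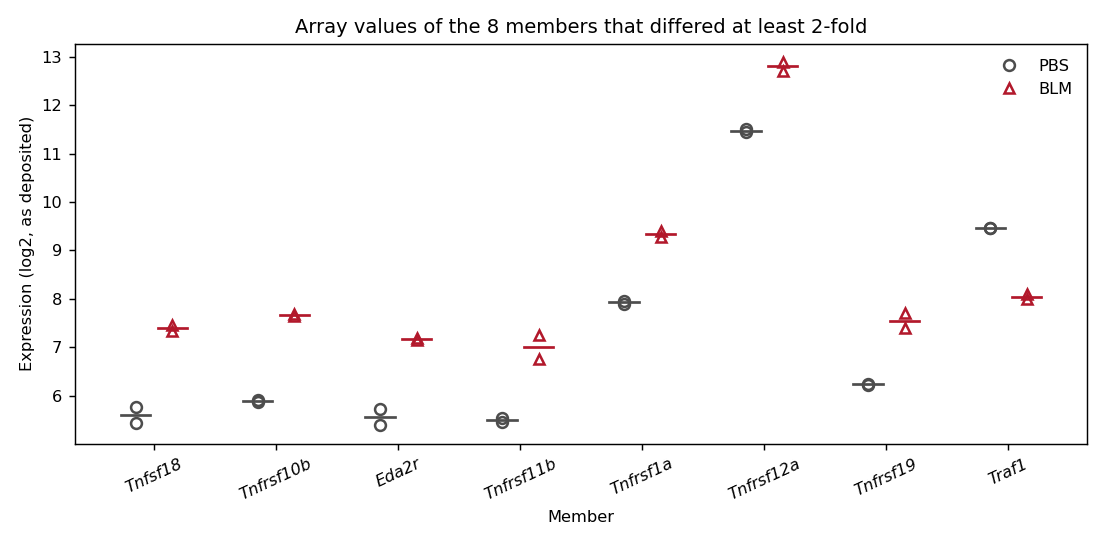
Log2 expression on each array (open circles PBS, open triangles BLM, bars the mean of the 2 arrays) for the 8 members that differed at least 2-fold. The groups do not overlap for any of them, as for 63.3% of all genes tested. The 8 were chosen by the threshold and the size of the difference, so this separation is no further support. The widest pair of arrays is that of the BLM values of Tnfrsf11b at 6.76 and 7.25.

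Promoters are shown for Traf1, the member that fell, and for the 3 highest rises that have an entry in the promoter table, so that the genes moving in opposite directions can be read beside their regulatory sequence. Of the 48 members, 39 have an entry from RefSeq on build GRCm38.p6; Tnfrsf10b and Tnfrsf11b do not. Each line gives the 250 bases before the annotated start, 5′ to 3′ on the gene's strand, and capitals mark a TATA match (TATAAA on either strand).
Traf1, chr2:34961773-34962022, minus strand: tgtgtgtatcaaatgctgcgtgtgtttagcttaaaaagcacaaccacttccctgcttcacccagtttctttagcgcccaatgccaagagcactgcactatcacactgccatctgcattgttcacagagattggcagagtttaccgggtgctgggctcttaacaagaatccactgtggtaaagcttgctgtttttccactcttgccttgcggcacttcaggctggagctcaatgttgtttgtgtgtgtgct
Tnfsf18, chr1:161494407-161494656, plus strand: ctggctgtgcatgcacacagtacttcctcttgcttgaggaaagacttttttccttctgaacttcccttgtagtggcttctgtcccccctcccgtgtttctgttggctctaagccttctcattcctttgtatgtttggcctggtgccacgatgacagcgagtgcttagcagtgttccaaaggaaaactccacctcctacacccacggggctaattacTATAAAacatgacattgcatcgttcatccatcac
Eda2r, chrX:97377210-97377459, minus strand: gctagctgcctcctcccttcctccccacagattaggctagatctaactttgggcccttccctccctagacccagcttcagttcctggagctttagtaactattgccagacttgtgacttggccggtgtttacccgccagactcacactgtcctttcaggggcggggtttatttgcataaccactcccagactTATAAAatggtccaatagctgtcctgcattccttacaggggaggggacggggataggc
Tnfrsf1a, chr6:125349473-125349722, plus strand: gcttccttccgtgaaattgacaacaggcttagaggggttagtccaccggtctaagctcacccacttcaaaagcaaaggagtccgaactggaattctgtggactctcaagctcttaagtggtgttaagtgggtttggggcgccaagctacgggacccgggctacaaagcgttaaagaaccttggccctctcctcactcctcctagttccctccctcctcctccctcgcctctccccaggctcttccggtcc
The TATA match lies 34 to 29 bases before the start in Tnfsf18 and 58 to 53 bases before it in Eda2r, and none was found in the Traf1 and Tnfrsf1a windows. Over all 39 members with an entry, 7 hold a TATA match (17.9%), beside 14.3% of 27025 genes with a window of the same length. The NF-kB consensus, searched on both strands, was in 4 member windows, those of Ltb, Tnfrsf25, Tnfrsf8 and Tnfrsf9 (10.3%, beside 8.23% of all genes), of which only Tnfrsf9 rose. The AP-1 motif TGANTCA was in 5, those of Fas, Tnfrsf8, Tnfrsf9, Tnfsf13b and Tnfsf14 (12.8%, beside 7.82%). A half-site of p53, also searched on both strands, was in those of Fasl and Tnfsf13b (5.13%, beside 8.2%). A match is a description of these letters and says nothing of binding.

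Among death receptors, the TRAIL receptor, TNF receptor 1 and Fas rose, 3 of the 7 measured. Tnfrsf10b, the mouse receptor through which TRAIL triggers apoptosis, read 5.88 and 5.90 with PBS and 7.65 and 7.68 with BLM. The arrays of each group were nearly superimposed, and the difference was 1.78 (SE 0.08, adjusted p = 0.000386), or 3.43-fold. Tnfrsf1a, the widely expressed receptor that carries most acute signalling by TNF, read 7.90 and 7.96 against 9.29 and 9.40. It rose by 1.41 (SE 0.09, adjusted p = 0.000649), or 2.66-fold, with all BLM values above all PBS values, as for 38% of all genes tested.

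Fas, the receptor for Fas ligand, read 9.81 and 10.13 against 10.74 and 10.78. It rose by 0.79 (SE 0.13, adjusted p = 0.00983), with BLM above PBS without overlap, as for 38% of all genes tested. A second, dimmer feature annotated to Fas read 5.20 and 5.59 against 4.95 and 5.02, lower with BLM. Its identifier names chromosome 17, whereas Fas and the identifier of the brighter feature are of chromosome 19, so it may not measure Fas. The mean of both features did not pass (adjusted p = 0.378).

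The other death-domain receptors did not pass. Ngfr, the low-affinity neurotrophin receptor, stood at 0.33 (adjusted p = 0.0603) and Edar, the ectodysplasin A1 receptor of skin appendages, at 0.07. Tnfrsf25, the receptor of Tnfsf15, stood at -0.02, and Tnfrsf21, death receptor 6, at -0.29 (adjusted p = 0.0727). With dim genes left out of the fit, Ngfr passed as higher (adjusted p = 0.0256) and Tnfrsf21 as lower (0.0313).

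Fas, Tnfrsf10b and Eda2r are known transcriptional targets of p53. Of 16 measured p53 target genes outside the family, 8 rose, 3 fell and 5 did not pass, with a median difference of 0.23 beside 0.05 over all genes. The share past the threshold was 68.8%, beside 25.3% of all genes and 42.7% of those above the median level of all genes. The cell cycle inhibitor Cdkn1a rose by 2.88 (SE 0.11), the cyclin G gene Ccng1 by 1.55 (SE 0.11), the kinase gene Plk2 by 1.52 (SE 0.10) and Phlda3, an inhibitor of AKT, by 1.12 (SE 0.10). The 3 that fell were Trp53inp1 at -0.80, Perp at -0.73 and Sesn2 at -0.45, and Bbc3, a p53-induced killer protein gene, stood at -0.10. The call for Sesn2 ended without BLM replicate 1 (adjusted p = 0.178), PBS replicate 1 (0.125) or PBS replicate 2 (0.108). The count past the threshold, 11, became 7 without PBS replicate 1, 6 without BLM replicate 1 and 7 without BLM replicate 2. Bax and Gdf15 were not analysed here. The part of p53 in the rise of the receptors was not tested.

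All 4 decoy-type receptors rose. Tnfrsf11b, the gene of osteoprotegerin, a secreted decoy for RANK ligand that also binds TRAIL, read 5.46 and 5.53 with PBS and 6.76 and 7.25 with BLM. The BLM arrays differed from each other by 0.49, the widest gap among BLM values of the family, and the difference was 1.51 (SE 0.17, adjusted p = 0.00327), or 2.85-fold. It ranged from 1.27 to 1.76 when each array was left out.

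The other 3 decoy-type genes, Tnfrsf22, Tnfrsf23 and Tnfrsf26, are neighbours on chromosome 7 with related sequences, and probes may take up RNA of more than 1 of them, so each value is uncertain as to its source. Tnfrsf22, a decoy for TRAIL, read 6.71 and 6.47 against 7.47 and 7.45 (difference 0.87, SE 0.11). Tnfrsf23, also a TRAIL decoy, read 5.44 and 5.26 against 6.30 and 6.08 (0.84, SE 0.12). Tnfrsf26 read 6.50 and 6.25 against 6.90 and 7.03 (0.59, SE 0.11), and its call ended without either BLM array (adjusted p = 0.0569 for replicate 1 and 0.0911 for replicate 2) or PBS replicate 2 (0.0546). All 3 read higher with BLM with no overlap of groups, as did 38% of all genes tested, and the 3 readings may not be separate signals. Tnfrsf23 lay above the highest background control probe set on 1 array only.

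Of 15 receptors that signal through TRAFs without a death domain, 6 rose, and 3 of these differed at least 2-fold. Eda2r, the X-linked receptor of ectodysplasin A2, read 5.72 and 5.38 with PBS and 7.15 and 7.18 with BLM. It rose by 1.62 (SE 0.13, adjusted p = 0.00126), or 3.07-fold, while its X-linked ligand gene Eda stood at -0.15 and the X-linked Cd40lg at 0.003. Eda2r is the only 1 of these 3 X-linked members that passed, in a comparison where Xist also differed.

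Tnfrsf12a, the gene of Fn14, the inducible TWEAK receptor of stromal and epithelial cells, read 11.51 and 11.44 against 12.72 and 12.89. It rose by 1.33 (SE 0.10, adjusted p = 0.00105), or 2.51-fold, and by 1.14 after cyclic loess scaling. Its ligand gene Tnfsf12 shares a feature with Tnfsf13 and was not compared.

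Tnfrsf19, the receptor known as TROY, read 6.24 and 6.22 against 7.71 and 7.39. It rose by 1.32 (SE 0.13, adjusted p = 0.00208), and a dimmer second feature of the gene read 4.24 and 4.05 against 4.55 and 4.59, also higher with BLM. Tnfrsf1b, the gene of TNF receptor 2, a receptor of leukocytes and endothelium, read 6.92 and 6.97 against 7.82 and 7.71, a rise of 0.82 (SE 0.09, adjusted p = 0.00263). The groups did not overlap for either gene, with BLM above, as for 38% of all genes tested. Macrophage markers, whose mean level was 7.69 and 7.70 with PBS and 8.89 and 8.96 with BLM, were higher on the same arrays, and their part in the rise of Tnfrsf1b was not tested.

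Cd40, the receptor by which T cells activate B cells, dendritic cells and also stromal cells, read 6.45 on both PBS arrays and 6.92 on both BLM arrays. The arrays of each group nearly coincided, yet the difference of 0.47 (SE 0.08, adjusted p = 0.0111) did not pass without BLM replicate 1 (adjusted p = 0.0698) or BLM replicate 2 (0.0684). Tnfrsf9, the T cell co-stimulator 4-1BB, read 5.19 and 5.29 against 5.65 and 5.56 (0.37, SE 0.09, adjusted p = 0.0357). Its call ended when any 1 array was left out (adjusted p 0.0611 to 0.184) and after cyclic loess scaling (0.0568).

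The remaining 9 of this class did not pass. Ltbr, the lymphotoxin beta receptor of stromal cells, differed by 0.35 (95% interval 0.07 to 0.63, adjusted p = 0.074, and 0.0342 with dim genes left out). All its BLM values lay above the PBS values, as for 38% of all genes tested. Tnfrsf11a, the gene of RANK, stood at 0.10 (95% interval -0.13 to 0.32). The B cell receptors Tnfrsf17, Tnfrsf13c and Tnfrsf13b stood at 0.23, 0.10 and 0.09, and the lymphocyte receptors Tnfrsf4, Tnfrsf14, Tnfrsf8 and Tnfrsf18 at 0.11, 0.07, 0.01 and -0.09. All 8 measured T cell markers had a mean at or below the median level of all genes, 6.03, as did 4 of the 8 co-stimulatory ligands.

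Of the 16 ligands 5 rose. The count was 3 without PBS replicate 1 (Tnfsf18, Tnfsf13b and Tnf, which did not pass with all arrays), 2 without BLM replicate 1 (Tnfsf18 and Tnfsf13b) and 3 without BLM replicate 2 (these and Tnfsf15). Tnfsf18, the gene of GITR ligand, which is made by endothelial and antigen-presenting cells, read 5.76 and 5.43 with PBS and 7.33 and 7.47 with BLM. With a rise of 1.81 (SE 0.13, adjusted p = 0.00108), or 3.49-fold, it had the greatest difference of all 48 members. Both PBS values were under 6.03, the median over all genes, whereas both BLM values were above it.

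Tnfsf15, the gene of TL1A, an endothelial and myeloid ligand, read 6.42 and 6.81 against 7.74 and 7.37. Arrays of a group were 0.39 and 0.37 apart, and the rise of 0.94 (SE 0.18, adjusted p = 0.0177) did not pass without PBS replicate 1 (0.0584) or BLM replicate 1 (0.0684). Tnfsf13b, the gene of the B cell survival factor BAFF, read 8.48 and 8.73 against 9.37 and 9.60. It rose by 0.88 (SE 0.13, adjusted p = 0.00762), although none of its 3 receptors passed and no B or plasma cell marker rose.

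Tnfsf10, the gene of TRAIL, read 8.57 and 8.89 against 9.35 and 9.20, a rise of 0.55 (SE 0.13, adjusted p = 0.0357). This call ended without either BLM array (adjusted p = 0.153 for replicate 1 and 0.0811 for replicate 2) or PBS replicate 1 (0.0913). Tnfsf11, the gene of RANK ligand, read 5.27 and 5.33 against 5.63 and 5.62 (0.32, SE 0.08, adjusted p = 0.0404). It lost its call when any 1 array was left out (adjusted p 0.0797 to 0.18), with a trended and robust prior (0.0542), after median centring (0.0586) and after cyclic loess scaling (0.0611).

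TNF itself and the lymphotoxins did not pass. Tnf read 5.24 and 4.76 with PBS and 5.48 on both BLM arrays, a difference of 0.48 (SE 0.17, 95% interval 0.06 to 0.90, adjusted p = 0.0991). The PBS arrays were 0.48 apart, as far as the groups, and the difference was 0.72 without PBS replicate 1 (adjusted p = 0.0161) and 0.24 without PBS replicate 2. Lta and Ltb, which pair into the lymphotoxin heterotrimer, stood at 0.17 and 0.16. None of these 3 passed by limma, where 1 had an unadjusted p under 0.05, and all 3 had a mean at or below the median level.

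Ligands carried by T cells and co-stimulators did not pass, apart from Tnfsf18 and Tnfsf15. Fasl, the killer ligand of cytotoxic T and NK cells, read 5.18 and 4.63 against 4.82 and 4.45 (-0.26, 95% interval -0.81 to 0.29), with overlapping groups and the widest PBS gap of the family, 0.55. Cd40lg stood at 0.003, a sign that turned after median centring (-0.02) and cyclic loess (-0.05). Tnfsf9, Tnfsf8, Tnfsf4, Tnfsf14 and Cd70, co-stimulators carried by antigen-presenting cells and lymphocytes, stood between 0.28 and -0.13. Their intervals reached at most 0.61 upward and 0.35 downward. Tnfsf8, Tnfsf4 and Cd70 lay above the highest background control probe set on 0 arrays, and Tnfsf9 and Tnfsf14 on 3. The intervals therefore describe the measured signal, and whether RNA of the dim ligands differed by more was not tested.

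Set side by side, ligands and receptors that bind each other often differed in their calls. In many such pairs 1 partner lay above the highest background control probe set on no array. Of 26 textbook ligand and receptor pairs with both genes measured, listed after the values were seen, both genes rose in 5. These were Tnfsf10 with Tnfrsf10b, Tnfrsf11b, Tnfrsf22 and Tnfrsf23, and Tnfsf11 with Tnfrsf11b, so all 5 rest on the calls of Tnfsf10 and Tnfsf11. Both genes rose in 0 pairs without BLM replicate 1, without BLM replicate 2 or with the minimum difference of 0.5, and without PBS replicate 1 in 2 pairs, those of Tnf with Tnfrsf1a and Tnfrsf1b. The receptor alone rose in 8, as for Tnf and Tnfrsf1a (0.48 and 1.41), Fasl and Fas (-0.26 and 0.79) and Eda and Eda2r (-0.15 and 1.62). The ligand alone rose in 6 (4 without PBS replicate 1 and 4 without BLM replicate 1), as for Tnfsf18 and Tnfrsf18 (1.81 and -0.09), Tnfsf15 and Tnfrsf25 (0.94 and -0.02) and Tnfsf13b with its 3 receptors. Neither rose in 7 (11 without BLM replicate 1). Genes recur across pairs, so these counts are not independent. Where the receptor alone rose, the ligands Tnf, Lta, Fasl, Cd40lg and Eda lay above the highest background control probe set on 0 arrays, and Tnfsf9 on 3. Where the ligand alone rose, the receptors Tnfrsf18, Tnfrsf25, Tnfrsf13c and Tnfrsf17 did so on 0, Tnfrsf13b on 1 and Tnfrsf11a on 3. A missing call of such dim partners does not show that ligand and receptor diverged.

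**Figure D3:**
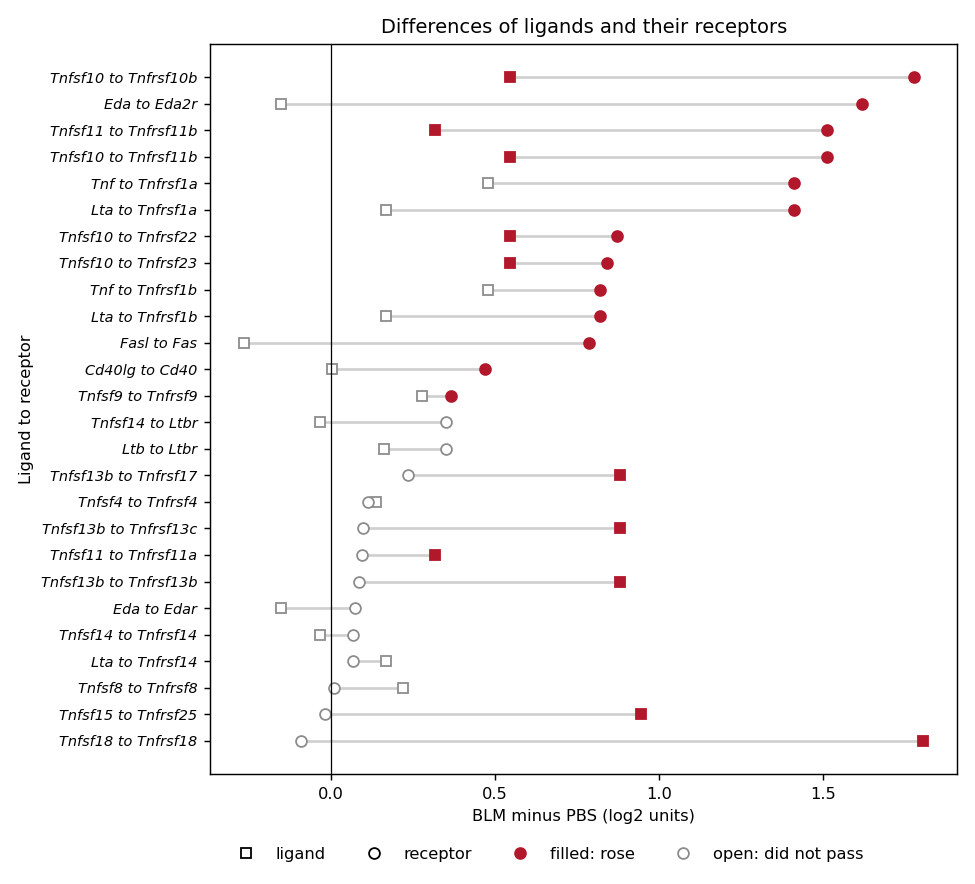
BLM minus PBS differences (log2 units) of ligands (squares) and receptors (circles) for 26 binding pairs, ordered by the receptor's difference; filled red symbols rose and open grey symbols did not pass. Receptors lead at the top, with Tnfrsf10b at 1.78 beside Tnfsf10 at 0.55, and ligands lead at the bottom, with Tnfsf18 at 1.81 beside Tnfrsf18 at -0.09. Many open symbols, Tnfrsf18 among them, are of genes that lay above the highest background control probe set on no array.

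By the order of protein-coding genes in RefSeq, 18 members stand next to another member, in 7 runs. Tnfsf18 rose by 1.81 between Tnfsf4 at 0.14 and Fasl at -0.26 on chromosome 1. Tnfsf15 rose by 0.94 beside Tnfsf8 at 0.22, and Tnfrsf1b by 0.82 beside Tnfrsf8 at 0.01, both on chromosome 4. No member of the chromosome 17 runs Ltb, Tnf and Lta or Tnfsf9, Cd70 and Tnfsf14 passed, nor did Tnfrsf4 and Tnfrsf18, which adjoin on chromosome 4.

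Among TRAFs, Traf1 fell, Traf5 and Traf6 rose and 3 of 6 did not pass; without any 1 of the arrays, the fall of Traf1 was the 1 call left. Traf1, an NF-kB-induced adaptor that lacks a RING domain and modulates signalling by Traf2, read 9.46 on both PBS arrays but 7.99 and 8.11 with BLM. It fell by 1.41 on the log2 scale (SE 0.09, adjusted p = 0.000642), so that PBS was 2.66-fold above BLM, and the difference lay between -1.47 and -1.35 when each array was left out. Alveolar type 2 markers (mean level 16.16 and 16.15 with PBS, 15.21 and 15.13 with BLM) and club and ciliated markers (12.53 and 12.52, against 11.04 and 11.07) were lower on the same arrays. So was the mean level of mast cell and basophil markers (7.69 and 7.68, against 6.86 and 6.84), of which 4 of 8 fell and 1 rose. The part of these cell types in the fall of Traf1 was not tested.

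Traf6, the ubiquitin ligase shared with interleukin 1 and Toll-like receptors, read 7.79 and 7.91 against 8.30 and 8.16 (0.38, SE 0.10, adjusted p = 0.0435). Traf5, an adaptor of lymphoid receptors, read 5.99 and 6.10 against 6.40 and 6.42 (0.37, SE 0.09, adjusted p = 0.0321). Both calls ended when any 1 array was left out, with an adjusted p of 0.0666 to 0.212 for Traf6 and 0.0504 to 0.145 for Traf5, and that of Traf6 also after median centring (0.059) and cyclic loess scaling (0.0574). Traf7 stood at 0.30 (adjusted p = 0.0546), and passed with dim genes left out (0.0214) and with a trended and robust prior (0.0371). Traf2, the main adaptor of TNF receptors, stood at -0.02 (95% interval -0.23 to 0.20) and Traf4 at -0.03 (-0.27 to 0.22).

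Downstream of the receptors, 14 of 23 NF-kB target genes (60.9%) and 4 of 16 adaptors, kinases and cell death genes (25%) rose. Higher genes were 15.2% of all genes tested and 25.3% of those above the median level. Of 16 adaptors, kinases and cell death genes, 4 rose, 2 fell and 10 did not pass. The 37.5% past the threshold stand beside 25.3% of all genes and 42.7% of those above the median level. Ripk3, the necroptosis kinase, read 7.73 and 7.74 against 9.08 and 9.14, a rise of 1.38 (SE 0.08). Its substrate Mlkl, the membrane-rupturing effector, rose by 1.14 (SE 0.15) and the initiator caspase gene Casp8 by 0.68 (SE 0.08), and Tradd, the adaptor of Tnfrsf1a, by 0.50 (SE 0.12). Map3k5, the stress kinase ASK1, fell from 10.22 and 10.18 to 9.06 and 8.97 (-1.18, SE 0.08), and Xiap, a caspase inhibitor, stood at -0.60 (SE 0.08), also past the threshold. Ripk1 was not analysed here. The call for Tradd ended without PBS replicate 1 (adjusted p = 0.0589), PBS replicate 2 (0.112) or BLM replicate 1 (0.147) and after cyclic loess scaling (0.0502).

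Of 11 ubiquitin regulators of this signalling, 4 rose and 7 did not pass. All 11 had a mean above the median level, and 36.4% passed, beside 42.7% of all genes in that range. Tnip3, an A20-binding inhibitor, rose by 1.27 (SE 0.09), A20 itself, Tnfaip3, by 0.57 (SE 0.10), Tnip1 by 0.54 (SE 0.08) and Tnip2 by 0.35 (SE 0.08). Sharpin, a subunit of the linear ubiquitin ligase, stood at 0.33 (adjusted p = 0.0742, and 0.0336 with dim genes left out). Those that rose are the A20 gene and the Tnip genes of A20-binding proteins, which are known to restrain NF-kB. The 7 that did not pass include the regulators Cyld at -0.03, Otulin at 0.03 and Tax1bp1 at -0.03. Tnip2 lost its call when any 1 array was left out (adjusted p 0.0656 to 0.15), Tnfaip3 without BLM replicate 1 (0.0673) or 2 (0.0603) and Tnip1 without BLM replicate 1 (0.0552), so the count became 1 without BLM replicate 1 and 2 without BLM replicate 2.

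Of 12 NF-kB subunits, inhibitors and IKK genes, 5 rose and 7 did not pass. This share of 41.7% stands beside 42.7% of all genes above the median level. Nfkbiz, an inducible nuclear IkB protein gene, rose by 0.93 (SE 0.09), Bcl3, another nuclear IkB protein, by 0.67 (SE 0.09), the subunit gene Rela by 0.53 (SE 0.11) and Nfkb2, of the non-canonical arm, by 0.48 (SE 0.08). Nfkbia, the main feedback inhibitor, stood at -0.05 (95% interval -0.27 to 0.18, and 0.02 without PBS replicate 2), and Nfkb1 and Chuk were not analysed here. The count of 5 became 2 without BLM replicate 1 and 2 without BLM replicate 2, where the calls for Rela (adjusted p = 0.08 and 0.0948) and Nfkb2 (0.0688 and 0.0615) ended; that of Rela also ended without PBS replicate 1 (0.0579).

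Of 23 NF-kB target genes, 14 rose, 2 fell and 7 did not pass, with a median difference of 0.49. The share past the threshold was 69.6%, beside 25.3% of all genes and 42.7% of those above the median level. The chemokine genes Ccl2 and Cxcl2 rose by 1.65 (SE 0.21) and 1.62 (SE 0.23), the survival gene Bcl2a1a by 1.57 (SE 0.11) and the T cell chemokine gene Ccl19 by 1.03 (SE 0.10). Bcl2a1a and Ccl19 have near-identical copies in the mouse genome, so their values are uncertain as to source. Sele, endothelial E-selectin, stood at -0.58 (SE 0.08) and Sod2 at -0.53 (SE 0.10), both past the threshold as lower. Sod2 did not pass without BLM replicate 1 (adjusted p = 0.0998) or PBS replicate 2 (0.0645), and the count past the threshold, 16, became 9 without BLM replicate 2. Pan-leukocyte markers (mean level 7.0 and 6.91 with PBS, 7.85 and 7.93 with BLM) were higher on the same arrays, and their part in these rises was not tested.

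Of 6 genes of ligand and receptor shedding, the proteases Adam10 and Adam17 rose, by 1.20 (SE 0.11) and 0.48 (SE 0.09), and 4 did not pass. All 6 lay above the median level, and 33.3% passed, beside 42.7% of all genes in that range. Adam17 is the protease that frees TNF and its receptors from the membrane. Its inhibitor Timp3 stood at -0.14, and at -0.33 after cyclic loess scaling (adjusted p = 0.0308). The call for Adam17 ended without either BLM array (adjusted p = 0.0913 for replicate 1 and 0.0528 for replicate 2) or PBS replicate 2 (0.0532), which left 1 of the 6 genes past the threshold. Of 9 TRAF-associated proteins none rose by limma, where 0 were higher at an unadjusted p under 0.05, and Traf3ip1, a cilium protein named for binding TRAF3, fell by 1.16 (SE 0.10), on the arrays where ciliated markers also fell, whose part in this was not tested.

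**Figure D4:**
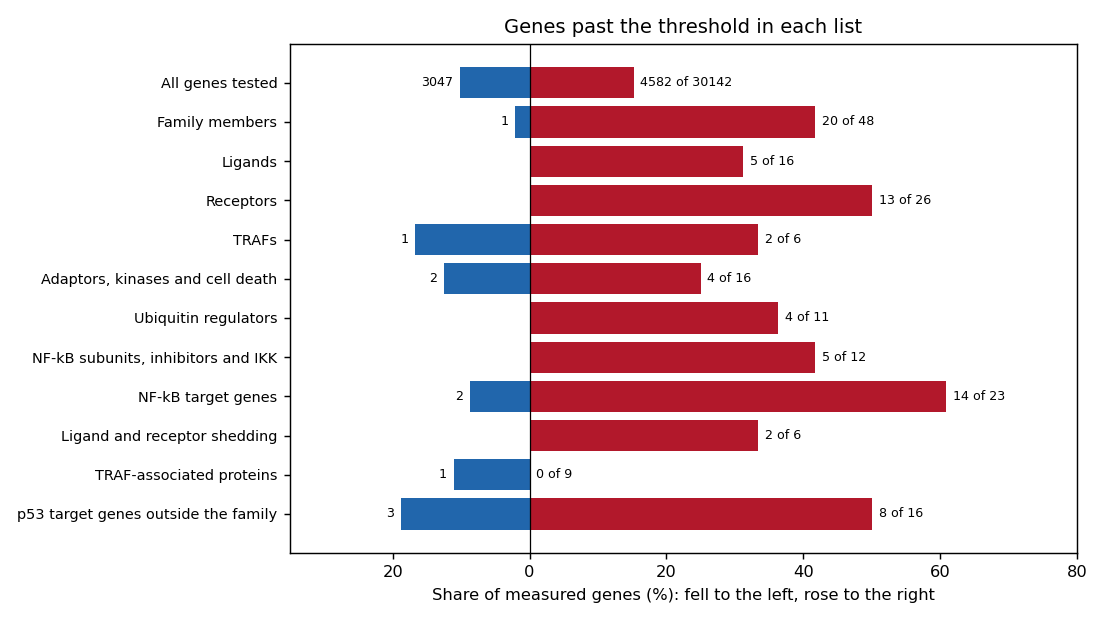
Share of measured genes (%) that rose (red, right) or fell (blue, left) in each list, with the numbers beside the bars. All genes tested are the top bar, 15.2% higher and 10.1% lower; NF-kB target genes reach 14 of 23 higher and TRAF-associated proteins 0 of 9.

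Calls were unevenly spread over signal levels. Of 30 members with a mean above the median level of all genes, 18 passed (60%), beside 42.7% of all genes in that range. Of 18 members at or below it, 3 passed (16.7%), beside 7.96%. The 3 were Tnfrsf23, Tnfrsf9 and Tnfsf11. Groups did not overlap for 37 of 48 members, with BLM above for 33 and below for 4, beside 63.3% of all genes without overlap, 38% above and 25.3% below.

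**Figure D5:**
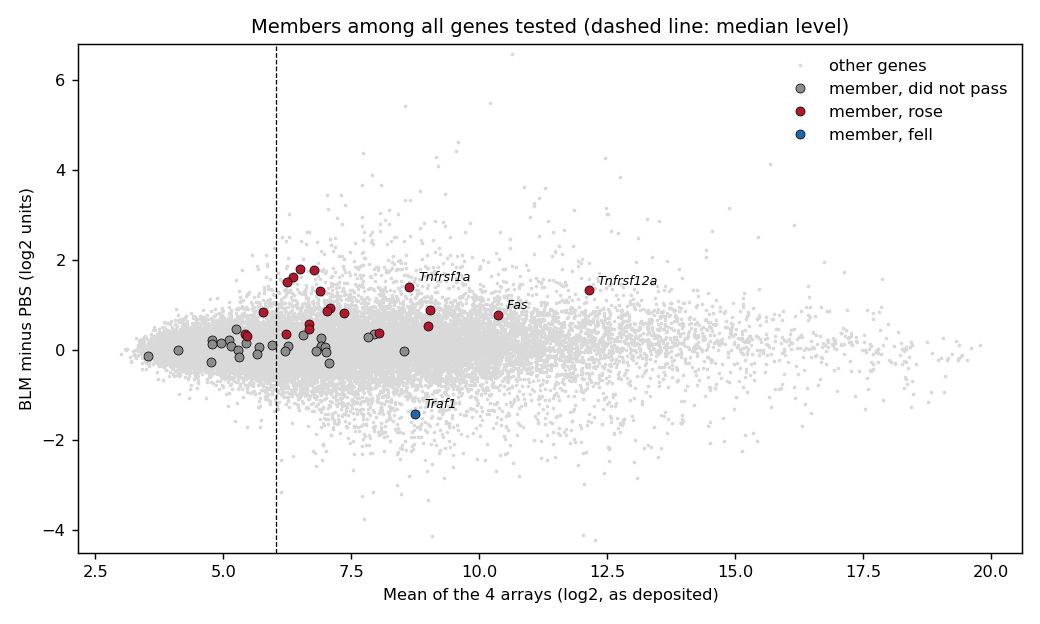
Mean of the 4 arrays (log2, as deposited) against the BLM minus PBS difference (log2 units) for each gene tested; grey dots are other genes, and large points are members that rose (red), fell (blue) or did not pass (grey). The dashed line is the median level, 6.03; 1 gene, Xist, lies outside the vertical range, and 17 of the 20 members that rose lie to the right of the line.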

How the data were processed

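Per the submitters' processing notes, the authors ran RMA in Affymetrix's Expression Console software, which corrects background, normalises between arrays and summarises the probes. The result, as deposited, is a log2 value per array feature. Tool versions, genome build and detection calls: not given in the sources used here. Precision is limited by the number of arrays, 4.

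Of 65956 transcript clusters, 30604 carry exactly 1 gene symbol (827 symbols updated through Entrez identifiers), and the cluster with the highest mean stood for its gene. Genes were compared by lmFit and eBayes of limma 3.58.1 under R 4.3.3 (2 residual and 3.33 prior degrees of freedom, two-sided), with Benjamini-Hochberg adjustment over 30142 genes, after the script was tested on simulated data. Members and lists were chosen with earlier results of these data known. The text names members past the threshold with a difference of at least 0.5, a fixed panel and up to 4 genes per pathway list; others were named after their values were seen.

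Alternatives were the replicate number as a block, each array left out, genes above the median level only, cyclic loess or median centring of the arrays, a prior with trend and robust options, averaged clusters per gene, no X or Y genes, and a minimum difference of 0.5.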

Additional observations from a re-analysis of the deposited data

How the results depend on the processing

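Of the 21 members past the threshold, 12 kept their call under every alternative but the minimum difference of 0.5, and 8 of these kept it there too: Tnfsf18, Tnfrsf10b, Eda2r, Tnfrsf11b, Tnfrsf1a, Tnfrsf12a, Tnfrsf19 and Traf1. With each array left out, 13 to 16 members passed (21 with all arrays), 12 to 15 of them higher (20), and these were 2 to 4 ligands (5), 10 to 12 receptors (13) and 1 TRAF (3). Other pathway genes past it were then 27 to 35 (45) and all genes 4003 to 5956 (7629). Against the minimum difference of 0.5, 8 members passed, 7 of them higher, comprising 1 ligand, 6 receptors and 1 TRAF, with 14 pathway genes and 1655 genes in all. With dim genes left out, 2 members were lower, Traf1 and Tnfrsf21.

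The replicate numbers share only a number: the deviations of same-numbered arrays from their group means correlated at 0.014. With the replicate block, 16 members passed, of which 3 were ligands and 1 was a TRAF, and Tnfrsf9, Tnfsf10, Tnfsf11, Traf5 and Traf6 lost their calls; both genes then rose in 0 of 26 ligand and receptor pairs, against 5.

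Signs turned for some genes, none of which passed the threshold under these settings. Cd40lg stood at -0.019 after median centring and -0.048 after cyclic loess, and Tnfrsf8 at -0.012 and -0.026. With each array left out, Cd40lg ranged from -0.12 to 0.12, Tnfrsf8 from -0.084 to 0.10, Fasl from -0.54 to 0.011, Tnfrsf13b from -0.027 to 0.20, Tnfrsf14 from -0.0043 to 0.14, Tnfrsf18 from -0.25 to 0.069, Tnfrsf25 from -0.042 to 0.0067, Tnfsf14 from -0.10 to 0.037, Traf2 from -0.069 to 0.037 and Traf4 from -0.12 to 0.064. Nfkbia stood at 0.023 without PBS replicate 2. The cause of these changes was not tested. Signal over background limits the dim members: 18 of 48 lay at or below the highest background control probe set of the array on all 4 arrays.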

Other observations

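Features that name several genes gave values for further family genes, outside the comparison. The feature annotated to Tnfsf12, the gene of TWEAK and ligand of Fn14, together with Tnfsf13, the gene of APRIL, read 9.69 and 9.65 with PBS and 9.37 and 9.51 with BLM. Both BLM values were below both PBS values, as for 25.3% of all genes tested. This difference was not tested, and the value cannot be assigned to either gene. The feature annotated to Cd27 and a microRNA gene read 5.31 and 5.37 against 5.28 and 5.31. The feature of Tnfsf13os, an antisense transcript beside Tnfsf13, read 6.47 and 6.43 against 5.94 and 5.81.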
